A study of Mus musculus with 13 samples.

Results

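Integrins and classical and related cadherins were examined in tail vertebral bone of mice, with and without bone lesions. The members were all genes whose array annotation starts with Itga or Itgb, without the integrin-binding Itgb1bp genes, and all numbered Cdh genes without the endothelial gene Cdh5. This rule found 44 genes with 76 probes, among 23978 probes with a gene symbol. Of these, 32 genes with 51 probes passed the filter on dim probes (detection p-value under 0.01 on at least 2 of 13 arrays) and were tested, among 10992 tested genes. The 32 were 21 integrin subunits, 9 cadherins and 2 genes that carry an integrin name but encode no integrin subunit, Itgb3bp (a centromere protein) and Itgbl1 (a secreted beta-like protein). The other 12 genes were detected on no array: Itga4, Itgb2l, Itgb8, Cdh4, Cdh7, Cdh8, Cdh12, Cdh16, Cdh17, Cdh20, Cdh24 and Cdh26.

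Total RNA was measured on 1 Illumina bead array per sample. The groups were lesions of Prkar1a+/- mice (3 arrays), lesions of Prkar1a+/-Prkaca+/- mice, here called double heterozygotes (2 arrays), bone of Prkaca+/- mice (4 arrays) and bone of WT mice (4 arrays). All mice were 9 months old and on a C57BL/6x129Sv/B6 hybrid background, and all samples were caudal vertebral bone. Prkar1a encodes a regulatory and Prkaca a catalytic subunit of protein kinase A, the kinase that cyclic AMP activates. Every sample with a Prkar1a mutation was a lesion, so the effects of the lesion and of that mutation cannot be told apart. The labels number the replicates without saying that they came from separate mice, so the spread behind each p-value may be technical.

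Integrins are receptors of 1 alpha and 1 beta subunit that span the membrane, bind matrix proteins or cell surface proteins outside the cell and link them to the actin cytoskeleton. The alpha subunit largely sets the ligand: one class binds collagen, another laminin, another proteins with an RGD motif such as fibronectin, vitronectin and osteopontin, and another is carried by leukocytes. Cadherins join like cells through calcium-dependent contacts and hold actin through catenins, and Cdh2 (N-cadherin) and Cdh11 (OB-cadherin) are the best known ones of the osteoblast lineage.

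Between 13961 and 14831 probes were detected per lesion array and between 13555 and 14254 per non-lesion array. The lowest detected log2 value was 5.16 to 5.34 in the lesion arrays and 5.28 to 5.45 in the others. At one dim level a probe was thus more easily detected on most lesion arrays, which limits the detection counts below. Pairs of arrays of one group correlated at r between 0.948 and 0.989. Values below are quantile-normalised log2 intensities, which may be compared between arrays for one probe but not between probes. Marker lists showed what else differed. The mean of the osteoblast list was 11.48 to 12.32 in the 5 lesion arrays and 8.27 to 9.39 in the 8 non-lesion arrays, and 10 of 10 tested osteoblast markers rose in the lesions. The mean of the osteoclast list was 9.64 to 10.36 in the 5 lesion arrays and 7.63 to 8.29 in the 8 non-lesion arrays, and 10 of 11 markers rose. The skeletal muscle list averaged 13.65, 10.30 and 12.43 in Prkar1a+/- lesions and 12.90 and 12.93 in double heterozygote lesions, against 13.99, 13.90, 13.79 and 13.70 in Prkaca+/- bone and 13.88, 13.81, 14.04 and 14.06 in WT bone. Of 15 tested muscle markers 10 fell and 0 rose, and all 15 were detected on all 8 non-lesion arrays. Prkar1a+/- lesion replicate 2 stood apart with the lowest muscle mean. The macrophage list averaged 9.56, 11.09 and 10.45 in Prkar1a+/- lesions and 10.51 and 10.72 in double heterozygote lesions, against 8.72, 9.20, 9.57 and 9.44 in Prkaca+/- bone and 9.58, 10.20, 8.52 and 9.12 in WT bone, with 7 of 10 markers higher and 0 lower. In bulk tissue, fewer cells of a type and less RNA per cell cannot be told apart.

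In lesions against non-lesion bone, 10 of the 32 members rose and 7 fell at a limma adjusted p under 0.05. The difference compared was the mean of both lesion groups minus the mean of both groups without lesion. The rises made up 31.2% of the members, where 26.2% of all tested genes rose. The falls made up 21.9% of the members, where 25.8% of all tested genes fell. Both shares lay near the background, so the family as a whole was not set apart by how often its members were called. The median log2 difference was 0.16 over the members and -0.0078 over all tested genes. Itga11, Itga2, Itgav, Itgb2, Itgb5, Itgb7, Cdh2, Cdh3, Cdh11 and Cdh22 rose. Itga3, Itga6, Itga7, Itgad, Itgb4, Itgb6 and Cdh13 fell. All 5 lesion arrays lay above all 8 others for 6 members (18.8%, against 14.9% of all genes) and below them for 4 (12.5%, against 13.2%). Itga2, Cdh3, Cdh6 and Cdh22 passed the filter through lesion arrays alone, since they were detected on none of the 8 non-lesion arrays. A gene that passed in this way had to be higher in the lesions, so the calls of Itga2, Cdh3 and Cdh22 support nothing by themselves. A run with no filter on dim probes counted the same 32 members, of which 10 rose. It therefore does not address this selection.

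**Figure D1:**
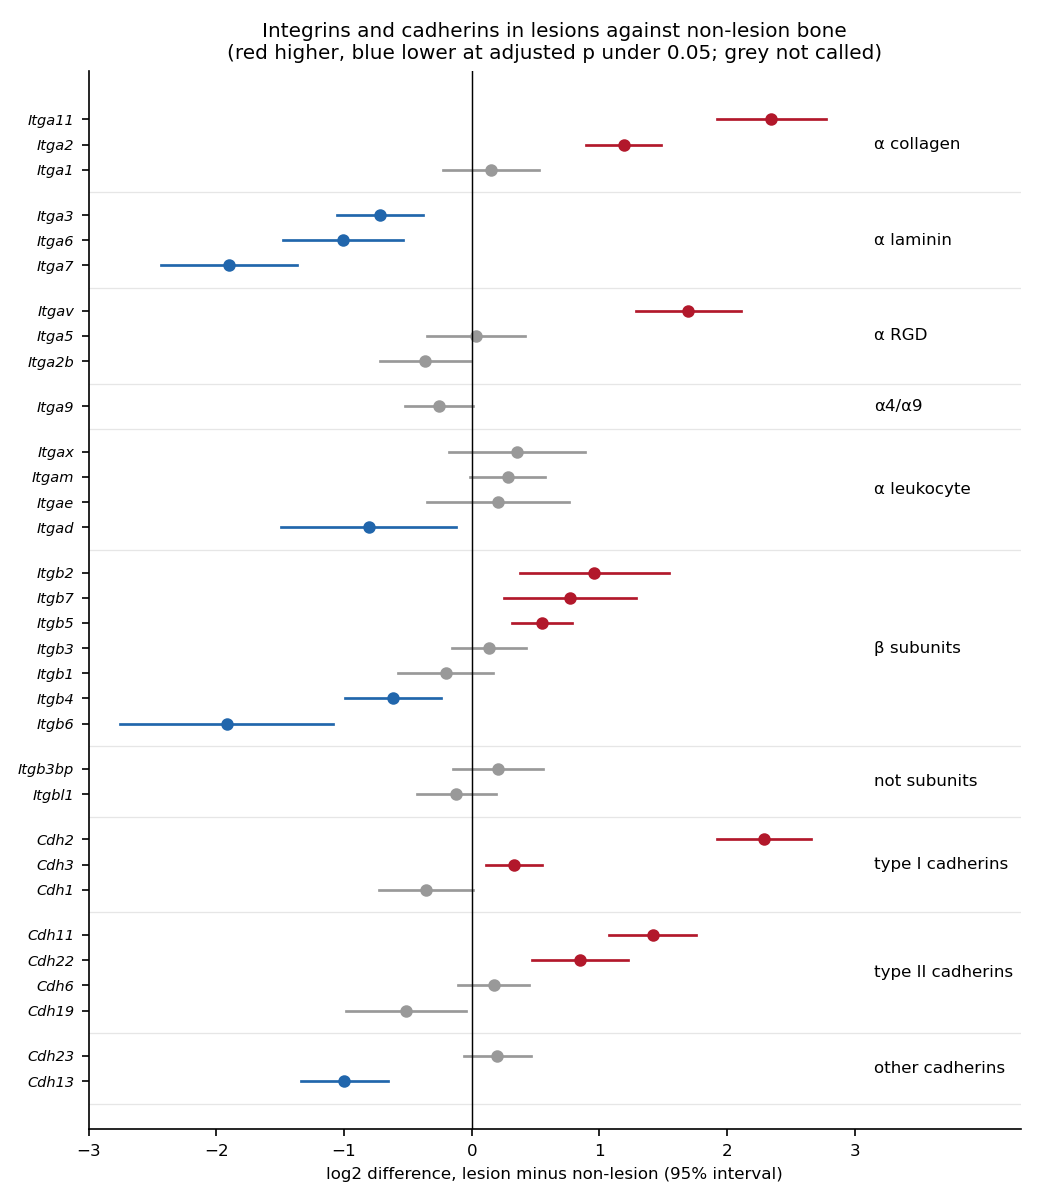
Log2 difference, lesion minus non-lesion, of each of the 32 tested members (points) with its 95% interval (lines), grouped by subunit class; 10 members rose (red), 7 fell (blue) and 15 were not called (grey). The 3 laminin-binding alpha subunits lie left of 0, and Itga11, Cdh2, Itgav and Cdh11 lie to the right of it.

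Promoter windows are shown for 2 members that rose and 2 that fell with no overlap between lesion and other arrays, to give the sequence around their start sites. They are RefSeq windows on GRCm38.p6, from 250 bases before to 50 after the annotated start, on the gene's strand. Such a window was at hand for 19 of the 32 tested members, 6 of the 10 that rose and 2 of the 7 that fell. Itga11 lies at chr9:62677605-62677904, + strand, Itgav at chr2:83724147-83724446, + strand, Itga3 at chr11:95076665-95076964, - strand and Itgb6 at chr2:60722554-60722853, - strand; Itga3 and Itgb6 have 2 windows and the first is shown. Capitals mark the GC box GGGCGG in Itgav and Itga3 and the reverse complement of the cyclic AMP element's core TGACG in Itgb6.
Itga11: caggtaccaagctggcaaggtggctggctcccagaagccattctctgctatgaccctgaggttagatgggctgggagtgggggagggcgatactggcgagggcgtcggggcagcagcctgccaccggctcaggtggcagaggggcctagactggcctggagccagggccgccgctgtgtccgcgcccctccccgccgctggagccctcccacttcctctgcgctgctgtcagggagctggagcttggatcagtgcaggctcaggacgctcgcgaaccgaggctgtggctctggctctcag
Itgav: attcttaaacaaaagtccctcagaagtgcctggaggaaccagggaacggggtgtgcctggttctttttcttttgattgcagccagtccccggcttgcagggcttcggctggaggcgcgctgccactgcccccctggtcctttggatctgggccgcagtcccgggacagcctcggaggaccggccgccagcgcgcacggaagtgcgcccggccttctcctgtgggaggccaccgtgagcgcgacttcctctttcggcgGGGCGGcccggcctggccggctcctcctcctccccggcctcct
Itga3: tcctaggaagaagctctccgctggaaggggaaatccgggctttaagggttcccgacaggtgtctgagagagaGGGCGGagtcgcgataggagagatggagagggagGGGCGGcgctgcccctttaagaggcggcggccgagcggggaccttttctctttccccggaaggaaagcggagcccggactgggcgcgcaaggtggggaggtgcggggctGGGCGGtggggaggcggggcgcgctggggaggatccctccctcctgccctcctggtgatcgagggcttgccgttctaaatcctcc
Itgb6: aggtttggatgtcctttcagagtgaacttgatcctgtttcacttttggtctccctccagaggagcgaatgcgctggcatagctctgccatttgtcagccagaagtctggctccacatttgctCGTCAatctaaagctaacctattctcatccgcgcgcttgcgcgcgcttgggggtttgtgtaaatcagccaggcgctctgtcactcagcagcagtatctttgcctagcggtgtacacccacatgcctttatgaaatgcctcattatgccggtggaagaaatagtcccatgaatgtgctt

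Each motif was searched on both strands, and a match is a description of the letters. The full cyclic AMP response element TGACGTCA was in 0 of the 19 windows, against 1.88% of 27025 promoters of the same length. Its core TGACG, which the full element contains, was in 3 (Itga9, Itgb1 and Itgb6), against 21.02%. It was in none of the 6 windows of members that rose. The AP-1 element TGANTCA was in 2 (Itga9 and Itgax), against 7.93%. The RUNX element TGTGGT was in 1 (Itgax), against 16.92%. The MEF2 element was in 0, against 3.7%, and TATAAA in 0, against 14.16%. The GC box was in 10, against 35.91%, including Itga2, Itgav, Itgb5 and Cdh22 among those that rose.

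The subunits that pair with Itgb1 to bind collagen were split, with Itga11 and Itga2 higher in the lesions and Itga1 not called. Itga11, the fibrillar collagen receptor of fibroblasts and other mesenchymal cells, had 12.25, 12.66 and 12.46 in Prkar1a+/- lesions and 12.37 and 12.81 in double heterozygote lesions, against 10.05, 10.03, 10.06 and 10.47 in Prkaca+/- bone and 10.35, 10.95, 9.73 and 9.78 in WT bone. The lowest lesion array (12.25) stood well above the highest other array (10.95). Itga11 was 5.09-fold higher in the lesions (log2 2.35 ± 0.20 (SE), adjusted p = 2.43e-06). The other 2 Itga11 probes rose by 2.31 and 1.31, the last without detection in non-lesion bone and so at least 1.65-fold. The printed Itga11 window held none of the 7 motifs. Itga2, a collagen receptor best known from platelets and epithelium, had 6.09, 6.34 and 6.19 in Prkar1a+/- lesions and 6.33 and 5.60 in double heterozygote lesions, against 4.85, 4.90, 4.69 and 4.97 in Prkaca+/- bone and 5.17, 4.68, 5.05 and 4.88 in WT bone. The groups did not overlap, although the gene was detected on 5 of 5 lesion arrays and 0 of 8 others. The rise of Itga2 (log2 1.19 ± 0.13 (SE), adjusted p = 2.45e-05) is therefore given as at least 1.69-fold. Itga2 passed the filter through lesion arrays alone, so its call supports nothing by itself. Without background correction its log2 difference was 0.48. Itga1, a collagen receptor of fibroblasts, smooth muscle and activated T cells, lay between 6.52 and 7.30 in the 5 lesion arrays and between 5.99 and 6.99 in the 8 non-lesion arrays (log2 difference 0.15 ± 0.17 (SE), adjusted p = 0.503). The 2 sets overlapped almost fully.

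All 3 laminin-binding alpha subunits fell in the lesions. Itga7, the main laminin receptor of muscle fibres, had 9.02, 7.07 and 8.01 in Prkar1a+/- lesions and 8.47 and 8.67 in double heterozygote lesions, against 10.07, 10.29, 10.21 and 10.23 in Prkaca+/- bone and 9.86, 10.22, 10.42 and 10.35 in WT bone. The highest lesion array (9.02) lay below the lowest other array (9.86), and Prkar1a+/- lesion replicate 2 was lowest. Itga7 was 3.74-fold lower (log2 -1.90 ± 0.25 (SE), adjusted p = 6.38e-05). Itga6, which joins Itgb1 or the hemidesmosome subunit Itgb4, had 7.83, 7.32 and 8.02 in Prkar1a+/- lesions and 7.16 and 8.17 in double heterozygote lesions, against 8.69, 8.90, 7.85 and 8.98 in Prkaca+/- bone and 8.75, 8.73, 8.87 and 8.85 in WT bone. Prkaca+/- replicate 3 lay among the lesions, and the other 7 non-lesion arrays lay above all 5 lesion arrays (log2 difference -1.01 ± 0.22 (SE), adjusted p = 0.00189). Itga3, a laminin receptor of basement membranes in epithelium, had 7.83, 8.22 and 8.53 in Prkar1a+/- lesions and 8.37 and 7.75 in double heterozygote lesions, against 8.56, 8.79, 9.25 and 8.73 in Prkaca+/- bone and 8.72, 8.90, 8.87 and 8.95 in WT bone. The groups did not overlap, with the highest lesion array just under the lowest non-lesion array (log2 difference -0.72 ± 0.16 (SE), adjusted p = 0.00211). Itgb4, the partner of Itga6, lay between 9.24 and 10.26 in the 5 lesion arrays and between 10.14 and 10.93 in the 8 non-lesion arrays, and its log2 difference was -0.62 ± 0.17 (SE), adjusted p = 0.00947. Without double heterozygote lesion replicate 1 the Itgb4 value was -0.46 with an adjusted p of 0.0730. A second Itgb4 probe fell by 0.84 and was also called in each lesion genotype against its control, where the brightest was not.

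Among the RGD-binding alpha subunits, Itgav rose and Itga5 and Itga2b were not called. Itgav, the common partner of Itgb3, Itgb5, Itgb6 and Itgb8, had 8.74, 9.16 and 9.65 in Prkar1a+/- lesions and 8.93 and 8.61 in double heterozygote lesions, against 6.92, 7.01, 7.70 and 7.41 in Prkaca+/- bone and 7.36, 7.39, 6.84 and 7.62 in WT bone. The lowest lesion array (8.61) lay above the highest other array (7.70). Itgav was 3.24-fold higher (log2 1.70 ± 0.19 (SE), adjusted p = 2.31e-05). Itga5, the fibronectin receptor, lay between 7.69 and 8.38 in the 5 lesion arrays and between 7.45 and 8.43 in the 8 non-lesion arrays (log2 difference 0.03 ± 0.18 (SE), adjusted p = 0.896). Itga2b, the alpha subunit of the platelet fibrinogen receptor, lay between 5.18 and 5.96 in the 5 lesion arrays and between 5.39 and 6.31 in the 8 non-lesion arrays (log2 difference -0.37 ± 0.16 (SE), adjusted p = 0.0775). The megakaryocyte and platelet list averaged 6.80 to 7.17 in the 5 lesion arrays and 6.38 to 7.03 in the 8 non-lesion arrays. Without WT replicate 1 Itga2b was called lower, at -0.45 with an adjusted p of 0.0234. Itga9, which binds tenascin-C and osteopontin, lay between 5.10 and 5.49 in the 5 lesion arrays and between 5.04 and 5.76 in the 8 non-lesion arrays (log2 difference -0.26 ± 0.12 (SE), adjusted p = 0.104). Without Prkaca+/- replicate 1 Itga9 was called lower, at -0.34 with an adjusted p of 0.00732.

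The beta subunits that pair with Itgav moved in different directions. Itgb5, which pairs with Itgav alone and binds vitronectin, had 12.04, 12.28 and 11.86 in Prkar1a+/- lesions and 12.18 and 12.02 in double heterozygote lesions, against 11.57, 11.40, 11.61 and 11.55 in Prkaca+/- bone and 11.51, 11.79, 11.36 and 11.46 in WT bone. The groups did not overlap, and the rise was the smallest of those without overlap (1.46-fold, log2 0.55 ± 0.11 (SE), adjusted p = 0.00101). With 75th percentile scaling it was 0.33. Itgb6, which also pairs with Itgav alone and is known as an epithelial activator of latent TGF-beta, had 9.75, 6.66 and 8.12 in Prkar1a+/- lesions and 9.38 and 8.78 in double heterozygote lesions, against 10.90, 10.34, 10.85 and 10.05 in Prkaca+/- bone and 10.63, 10.47, 10.63 and 10.51 in WT bone. The lesion arrays were widely spread, with Prkar1a+/- lesion replicate 2 lowest, and all lay below the others. Itgb6 was 3.78-fold lower (log2 -1.92 ± 0.39 (SE), adjusted p = 0.00122), and its other 2 probes fell by 2.02 and 1.48. Itgb3, which with Itgav forms the main integrin of osteoclasts, had 5.57, 5.92 and 5.87 in Prkar1a+/- lesions and 5.41 and 5.37 in double heterozygote lesions, against 5.83, 5.81, 5.48 and 5.27 in Prkaca+/- bone and 5.55, 5.42, 5.26 and 5.0 in WT bone. The 2 sets overlapped (log2 difference 0.14 ± 0.13 (SE), adjusted p = 0.420), while the osteoclast list was higher in every lesion array than in any other array. The only tested Itgb3 probe was detected on 5 of 5 lesion arrays and 5 of 8 others. Its values lay near the lowest detected ones, 5.16 to 5.45 by array, so a change in Itgb3 could be missed. Itgb1, the most widely shared beta subunit, lay between 7.97 and 8.35 in the 5 lesion arrays and between 7.73 and 8.90 in the 8 non-lesion arrays (log2 difference -0.21 ± 0.17 (SE), adjusted p = 0.341). Its second probe stood at 0.13, and neither was called.

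Of the leukocyte integrins, the beta subunits Itgb2 and Itgb7 rose while none of the 4 tested alpha subunits did. Among other alpha subunits, Itgal had no annotated probe and Itga4 was detected on no array, so neither could be read. Itgb2, the beta subunit of the leukocyte integrins, had 6.72, 7.70 and 7.32 in Prkar1a+/- lesions and 6.94 and 7.35 in double heterozygote lesions, against 5.62, 6.08, 6.75 and 6.33 in Prkaca+/- bone and 5.86, 7.27, 5.95 and 6.03 in WT bone. WT replicate 2 and Prkaca+/- replicate 3 lay within the range of the lesions, and the rise was 1.95-fold (log2 0.96 ± 0.27 (SE), adjusted p = 0.00954). Itgb7, the partner of Itga4 and Itgae on lymphocytes, lay between 5.99 and 7.26 in the 5 lesion arrays and between 5.18 and 6.42 in the 8 non-lesion arrays (log2 difference 0.77 ± 0.24 (SE), adjusted p = 0.0160). Without double heterozygote lesion replicate 2 the Itgb7 value was 0.60 with an adjusted p of 0.0970. The T and NK cell list averaged 5.60 to 7.16 in the 5 lesion arrays and 5.23 to 5.59 in the 8 non-lesion arrays, with 4 of 10 markers higher and 1 lower. Its part in the Itgb7 result was not tested. Itgam, the alpha subunit of complement receptor 3, lay between 4.95 and 5.59 in the 5 lesion arrays and between 4.74 and 5.44 in the 8 non-lesion arrays, with detection on 3 lesion and 1 non-lesion arrays (log2 difference 0.28 ± 0.14 (SE), adjusted p = 0.101). Without WT replicate 2 or Prkar1a+/- lesion replicate 1 Itgam was called higher, at 0.34 (adjusted p = 0.0460) or 0.35 (adjusted p = 0.0467). Itgax, known from dendritic cells, lay between 4.84 and 6.35 in the 5 lesion arrays and between 4.74 and 5.94 in the 8 non-lesion arrays (log2 difference 0.36 ± 0.24 (SE), adjusted p = 0.247). It was detected on 4 lesion and 1 non-lesion arrays. Itgae, known from T cells in epithelium, lay between 5.36 and 6.76 in the 5 lesion arrays and between 4.84 and 6.24 in the 8 non-lesion arrays (log2 difference 0.21 ± 0.26 (SE), adjusted p = 0.531). Itgad, an alpha partner of Itgb2 on macrophages, lay between 5.13 and 6.26 in the 5 lesion arrays and between 5.40 and 7.38 in the 8 non-lesion arrays. Its fall (log2 -0.81 ± 0.32 (SE), adjusted p = 0.0478) passed narrowly, and 10 of the 13 runs that left out 1 array lost the call. Of its other 2 probes 1 fell by 0.79 and 1 stood at -0.09 without a call. The 3 Itgad runs that kept it left out WT replicate 1, Prkaca+/- replicate 1 or Prkar1a+/- lesion replicate 3.

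Among the type I cadherins, Cdh2 and Cdh3 rose in the lesions and Cdh1 was not called. Cdh2 (N-cadherin), an adhesion protein of mesenchymal, neural and muscle cells, had 7.16, 7.76 and 8.24 in Prkar1a+/- lesions and 7.30 and 6.77 in double heterozygote lesions, against 4.86, 4.88, 5.06 and 5.16 in Prkaca+/- bone and 5.27, 5.30, 4.90 and 5.26 in WT bone. The lowest lesion array (6.77) stood well above the highest other array (5.30). Cdh2 was 4.89-fold higher (log2 2.29 ± 0.17 (SE), adjusted p = 9.03e-07). It was detected on 5 of 5 lesion arrays and 1 of 8 others, and without background correction the log2 difference was 1.14. With the mean of all its tested probes it was 1.53. A second Cdh2 probe rose by 2.21. The other 2, detected on no non-lesion array, rose by 0.63 and 0.96. Their groups overlapped, and their bounds of 1.15-fold and 1.09-fold carry no sampling error. Cdh1 (E-cadherin), the main cadherin of epithelium, had 6.75, 6.27 and 6.08 in Prkar1a+/- lesions and 7.25 and 6.92 in double heterozygote lesions, against 6.92, 7.19, 6.58 and 6.85 in Prkaca+/- bone and 7.82, 7.25, 6.94 and 7.15 in WT bone. The Prkar1a+/- lesions were low and the double heterozygote lesions were not, and the joint comparison made no call (log2 difference -0.36 ± 0.17 (SE), adjusted p = 0.0959). The keratinocyte list averaged 6.98, 6.50 and 6.59 in Prkar1a+/- lesions and 9.75 and 7.33 in double heterozygote lesions, against 7.97, 7.65, 7.35 and 7.44 in Prkaca+/- bone and 8.01, 8.83, 8.47 and 7.82 in WT bone, so it too was lower in the 3 Prkar1a+/- lesions than in WT bone. Of its 4 tested markers 2 fell and 0 rose in lesions against non-lesion bone, and its part in the Cdh1 values was not tested. Cdh3 (P-cadherin), also epithelial, had 5.16, 5.28 and 5.57 in Prkar1a+/- lesions and 5.04 and 4.86 in double heterozygote lesions, against 4.86, 4.84, 4.60 and 4.86 in Prkaca+/- bone and 4.95, 4.70, 4.80 and 4.86 in WT bone. Its rise was small (log2 0.33 ± 0.10 (SE), adjusted p = 0.0158), with detection on 2 lesion arrays and no others, so no fold is given. For the same reason the call supports nothing by itself. Without double heterozygote lesion replicate 1 the Cdh3 call was lost, at 0.29 with an adjusted p of 0.0795.

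Among the type II cadherins, Cdh11 and Cdh22 rose and Cdh6 and Cdh19 were not called. Cdh11 (OB-cadherin), first known from osteoblasts, had 7.67, 7.75 and 7.91 in Prkar1a+/- lesions and 8.52 and 7.50 in double heterozygote lesions, against 6.65, 6.40, 6.31 and 6.61 in Prkaca+/- bone and 6.72, 6.44, 6.37 and 6.29 in WT bone. The lowest lesion array (7.50) lay above the highest other array (6.72). Cdh11 was 2.67-fold higher (log2 1.42 ± 0.16 (SE), adjusted p = 2.12e-05), and its second probe rose by 1.97. Cdh22 had 5.17, 5.99 and 4.87 in Prkar1a+/- lesions and 5.54 and 5.51 in double heterozygote lesions, against 4.77, 4.48, 4.48 and 4.37 in Prkaca+/- bone and 4.74, 4.90, 4.31 and 4.61 in WT bone. Prkar1a+/- lesion replicate 3 lay within the range of the others, and the log2 difference was 0.85 ± 0.17 (SE), adjusted p = 0.00137. The gene was detected on 3 of 5 lesion arrays and no non-lesion array, so its rise is given as a bound of 1.07-fold, without sampling error. For the same reason the Cdh22 call supports nothing by itself. Cdh6 (K-cadherin), known from kidney, lay between 4.97 and 5.47 in the 5 lesion arrays and between 4.72 and 5.21 in the 8 non-lesion arrays (log2 difference 0.17 ± 0.13 (SE), adjusted p = 0.285). Cdh19, a gene of Schwann cells and their precursors, was detected on 0 of 5 lesion arrays and 4 of 8 others, and was not called (log2 difference -0.51 ± 0.22 (SE), adjusted p = 0.0651). Without Prkaca+/- replicate 2 or 3 Cdh19 was called lower, at -0.59 (adjusted p = 0.0397) or -0.58 (adjusted p = 0.0444). Cdh19 passed the filter through non-lesion arrays alone, so these calls support nothing by themselves. The Schwann cell list averaged 8.74 to 9.68 in the 5 lesion arrays and 9.64 to 10.36 in the 8 non-lesion arrays, with 4 of 6 markers lower.

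Cdh13 (T-cadherin), which is held to the membrane by a lipid anchor, lacks the catenin-binding tail and binds adiponectin, had 9.66, 8.80 and 9.08 in Prkar1a+/- lesions and 9.40 and 9.70 in double heterozygote lesions, against 10.33, 10.57, 10.44 and 10.53 in Prkaca+/- bone and 10.09, 10.72, 10.17 and 10.08 in WT bone. No lesion array reached the lowest WT array. Cdh13 was 2.00-fold lower (log2 -1.0 ± 0.16 (SE), adjusted p = 0.000241), and its second probe fell by 1.41. The adipocyte list, with 7 of 7 markers lower, averaged 7.37 to 9.25 in the 5 lesion arrays and 9.69 to 10.81 in the 8 non-lesion arrays, and its part in the Cdh13 result was not tested. Cdh23, known from the tip links of hair cells, lay between 5.32 and 5.59 in the 5 lesion arrays and between 4.89 and 5.54 in the 8 non-lesion arrays and was not called (log2 difference 0.20 ± 0.12 (SE), adjusted p = 0.189), although a dimmer probe, detected on no non-lesion array, was called higher at 0.39. Neither Itgb3bp (log2 difference 0.20 ± 0.16 (SE), adjusted p = 0.322) nor Itgbl1 (-0.12 ± 0.14 (SE), adjusted p = 0.504) was called. Without double heterozygote lesion replicate 2 Itgbl1 was called lower, at -0.35 with an adjusted p of 0.0371.

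**Figure D2:**
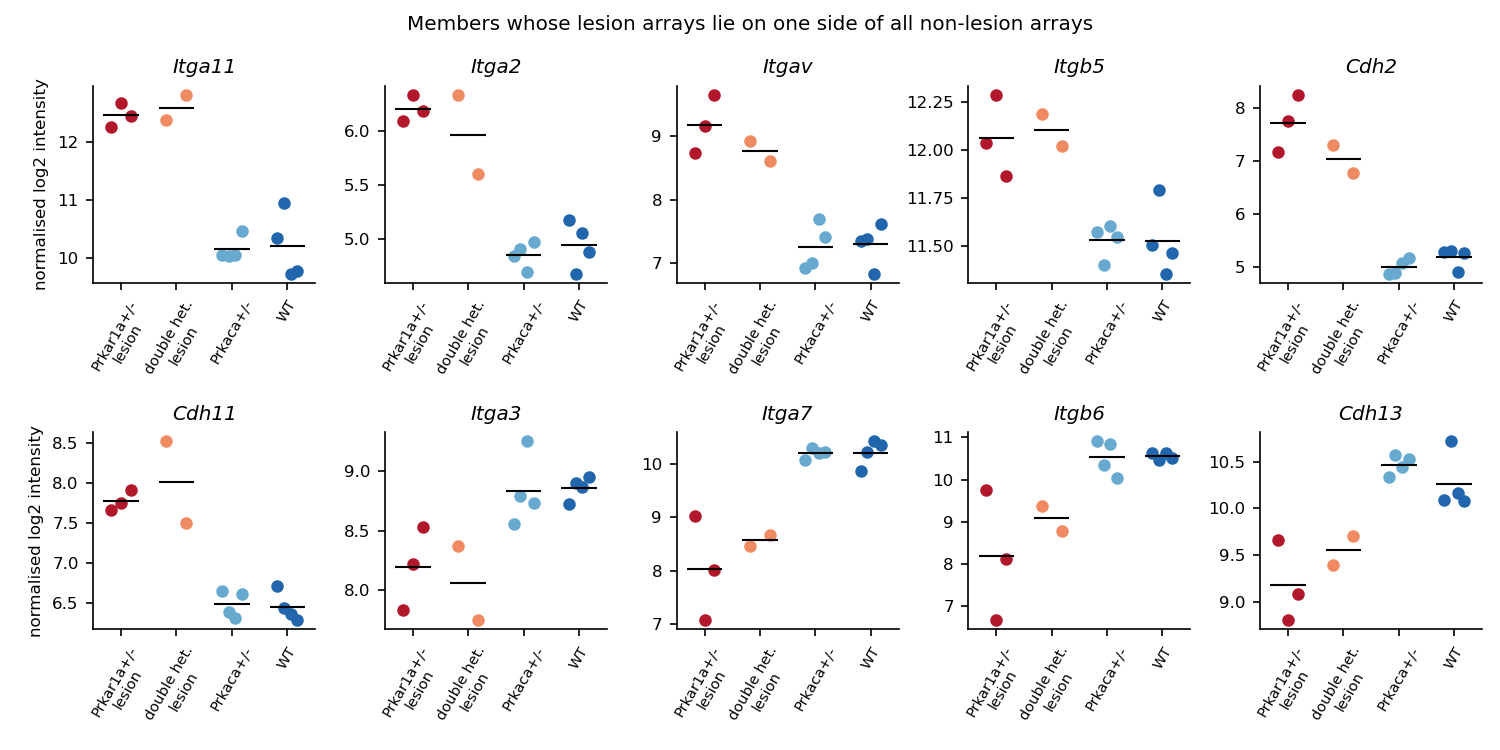
Normalised log2 intensity of the 10 members whose 5 lesion arrays all lie on one side of the 8 others, with 1 point per array and a line at the mean of each group (3 Prkar1a+/- lesion, 2 double heterozygote lesion, 4 Prkaca+/- and 4 WT arrays; each panel has its own axis). Itga11, Itga2, Itgav, Itgb5, Cdh2 and Cdh11 are above, and Itga3, Itga7, Itgb6 and Cdh13 below.

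Each lesion genotype was then set against its own control, which asks whether lesions with and without a Prkaca mutation differed from matched bone in the same members. Prkar1a+/- lesions against WT gave 10 higher members (31.2%, against 20.7% of all genes) and 6 lower (18.8%, against 19.3%). Double heterozygote lesions against Prkaca+/- gave 7 higher (21.9%, against 15.5%) and 4 lower (12.5%, against 13.5%). All 11 members called in double heterozygotes were also called, in the same direction, in Prkar1a+/- lesions. Over all tested genes the same held for 87.5% of those called in double heterozygotes (2795 of 3194), so 11 of 11 is near the background. They were Itga2, Itga11, Itgav, Itgb5, Cdh2, Cdh11 and Cdh22, which rose, and Itga3, Itga6, Itga7 and Cdh13, which fell. The group means of these 2 comparisons share no array. Both used the same estimate of the spread from all 13 arrays, so their calls are not independent. Itga2 and Cdh22 passed the filter through lesion arrays alone, so their agreement supports nothing by itself.

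The values of both comparisons follow side by side. Cdh2 rose by 2.54 ± 0.23 in Prkar1a+/- lesions against WT, where 1 of 4 WT arrays detected it. No Prkaca+/- array detected Cdh2, so its rise in double heterozygote lesions against Prkaca+/- is at least 3.28-fold. Itga2, detected in neither control, rose at least 1.82-fold in Prkar1a+/- lesions against WT and at least 1.57-fold in double heterozygote lesions against Prkaca+/-. Cdh22 was also detected in neither control. Only 1 Prkar1a+/- lesion array detected Cdh22, and its bound against WT was below 0 (log2 -0.0070), so no fold is given. In double heterozygote lesions against Prkaca+/- the bound on the rise of Cdh22 is 1.15-fold, without sampling error. Itga11 rose by 2.25 ± 0.26 (log2) in the first comparison and 2.44 ± 0.30 in the second. Itgav rose by 1.89 ± 0.25 and 1.51 ± 0.29, in the same order. Cdh11 rose by 1.32 ± 0.21 and 1.51 ± 0.24. Itga7 had -2.18 ± 0.33 and -1.63 ± 0.37, both called. For Cdh13 the values were -1.08 ± 0.21 and -0.92 ± 0.24.

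Another 5 members were called in Prkar1a+/- lesions against WT only: Itgb2, Itgb3, Itgb6, Cdh1 and Cdh3. Itgb6 stood at -2.38 ± 0.51 against WT (adjusted p = 0.00314) and -1.46 ± 0.58 in double heterozygote lesions against Prkaca+/- (adjusted p = 0.0763). Both other Itgb6 probes were called lower in the second comparison too (adjusted p = 0.0425 and 0.00177). Itgb2 stood at 0.97 ± 0.36 (adjusted p = 0.0458) and 0.95 ± 0.40 (adjusted p = 0.0951), almost the same size. Cdh3, detected in neither control, stood at 0.51 ± 0.14 (adjusted p = 0.0103) and 0.16 ± 0.15 (adjusted p = 0.470). The signs differed for Cdh1, at -0.92 ± 0.23 (adjusted p = 0.00673) and 0.20 ± 0.26 (adjusted p = 0.594). They also differed for Itgb3, at 0.48 ± 0.18 (adjusted p = 0.0460) and -0.21 ± 0.20 (adjusted p = 0.463). The Itgb3 call was lost without WT replicate 3 or 4, Prkaca+/- replicate 3, Prkar1a+/- lesion replicate 2 or 3, or either double heterozygote lesion, with values from 0.38 to 0.48 and adjusted p from 0.0527 to 0.158. Leaving out Prkar1a+/- lesion replicate 2 reduced the 16 calls against WT to 10, and leaving out double heterozygote lesion replicate 1 reduced the 11 calls against Prkaca+/- to 6.

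The difference between both lesion effects was tested directly and gave 0 calls among the members and 0 among all genes. Only Cdh1 (1.12, unadjusted p = 0.0062) and Itgb3 (-0.69, unadjusted p = 0.0231) had an unadjusted p under 0.05, each with an adjusted p that rounds to 1. Over all genes 281 did. Double heterozygote against Prkar1a+/- lesions also gave 0 calls (0 over all genes, 384 at an unadjusted p under 0.05). Of the members, Cdh1 (0.71 ± 0.27), Cdh2 (-0.68 ± 0.27) and Cdh3 (-0.39 ± 0.16) reached that level. Prkaca+/- against WT gave 0 calls, with no member and 168 of all genes at an unadjusted p under 0.05. Precision was limited by 2 double heterozygote arrays in the first and second of these comparisons and by 4 against 4 arrays in the third. The 0 calls do not show that the genotypes were alike.

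**Figure D3:**
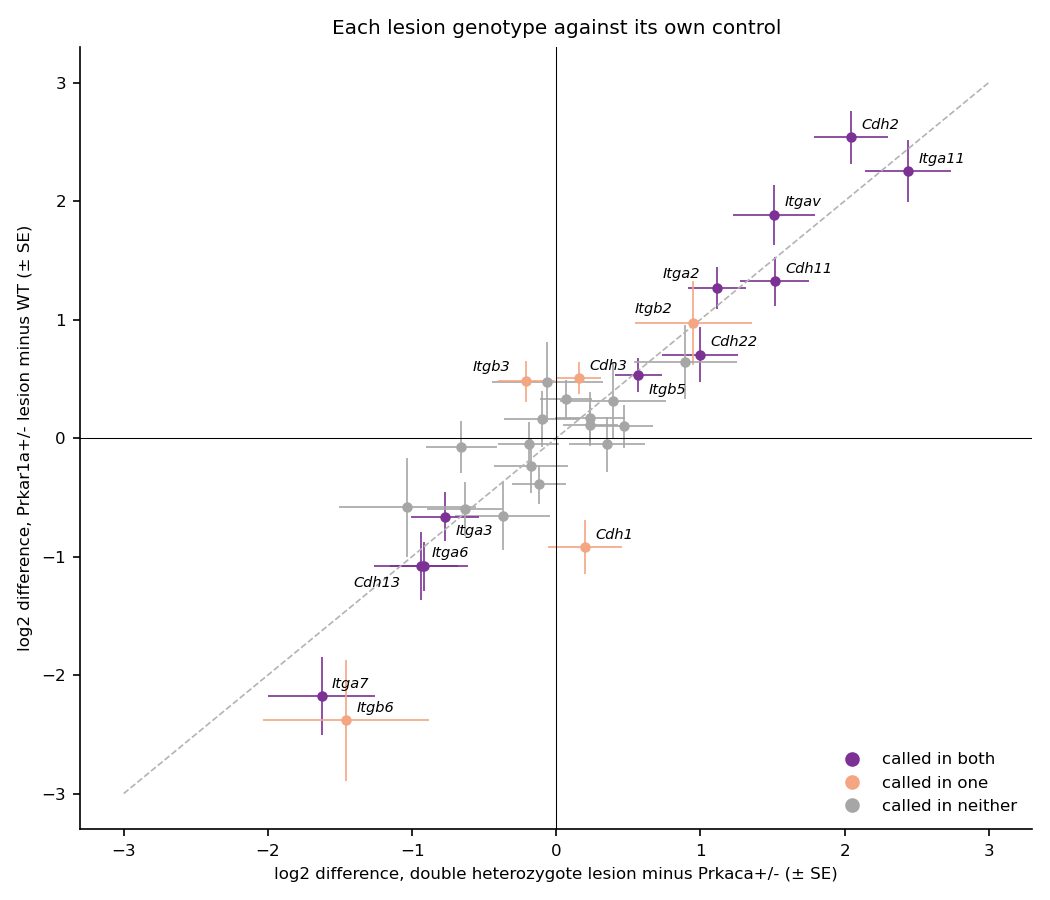
Log2 difference (± SE) of each of the 32 members in Prkar1a+/- lesions minus WT (vertical) against double heterozygote lesions minus Prkaca+/- (horizontal), with the line of equal values dashed. The 11 members called in both (purple) lie near the line, and Cdh1 and Itgb3, called against WT only (orange), lie on opposite sides of 0.

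Several members followed the mean of a cell type list from array to array. Itga7, Itgb6 and Cdh13 were lowest in Prkar1a+/- lesion replicate 2 and next lowest in replicate 3, the 2 arrays with the lowest muscle means (10.30 and 12.43). Prkar1a+/- lesion replicate 1 had a muscle mean of 13.65, against 13.70 to 14.06 in non-lesion bone, and Itga7 at 9.02, against 9.86 to 10.42 in non-lesion bone. With the muscle mean as a covariate, Itga7 stood at -1.13 (adjusted p = 0.000625), Itgb6 at -0.69 (0.0541) and Cdh13 at -0.70 (0.0221). Itgb2 and Itgb7 peaked in Prkar1a+/- lesion replicate 2, where the macrophage mean was highest too (11.09). Among non-lesion arrays Itgb2 was highest in WT replicate 2 (7.27), which had their highest macrophage mean (10.20). With the macrophage mean as a covariate, Itgb2 stood at 0.05 (adjusted p = 0.919) and Itgb7 at 0.08 (0.877). Under either covariate Itga2, Itga11, Itgav, Cdh2 and Cdh11 were still called higher and Itga3, Itga7 and Cdh13 lower, 8 of the 17. The other 9 were not called. Itga2 passed the filter through lesion arrays alone, so its kept call supports nothing by itself. Both covariates moved with the lesions themselves, and the part of these cells in the results was not tested further.

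**Figure D4:**
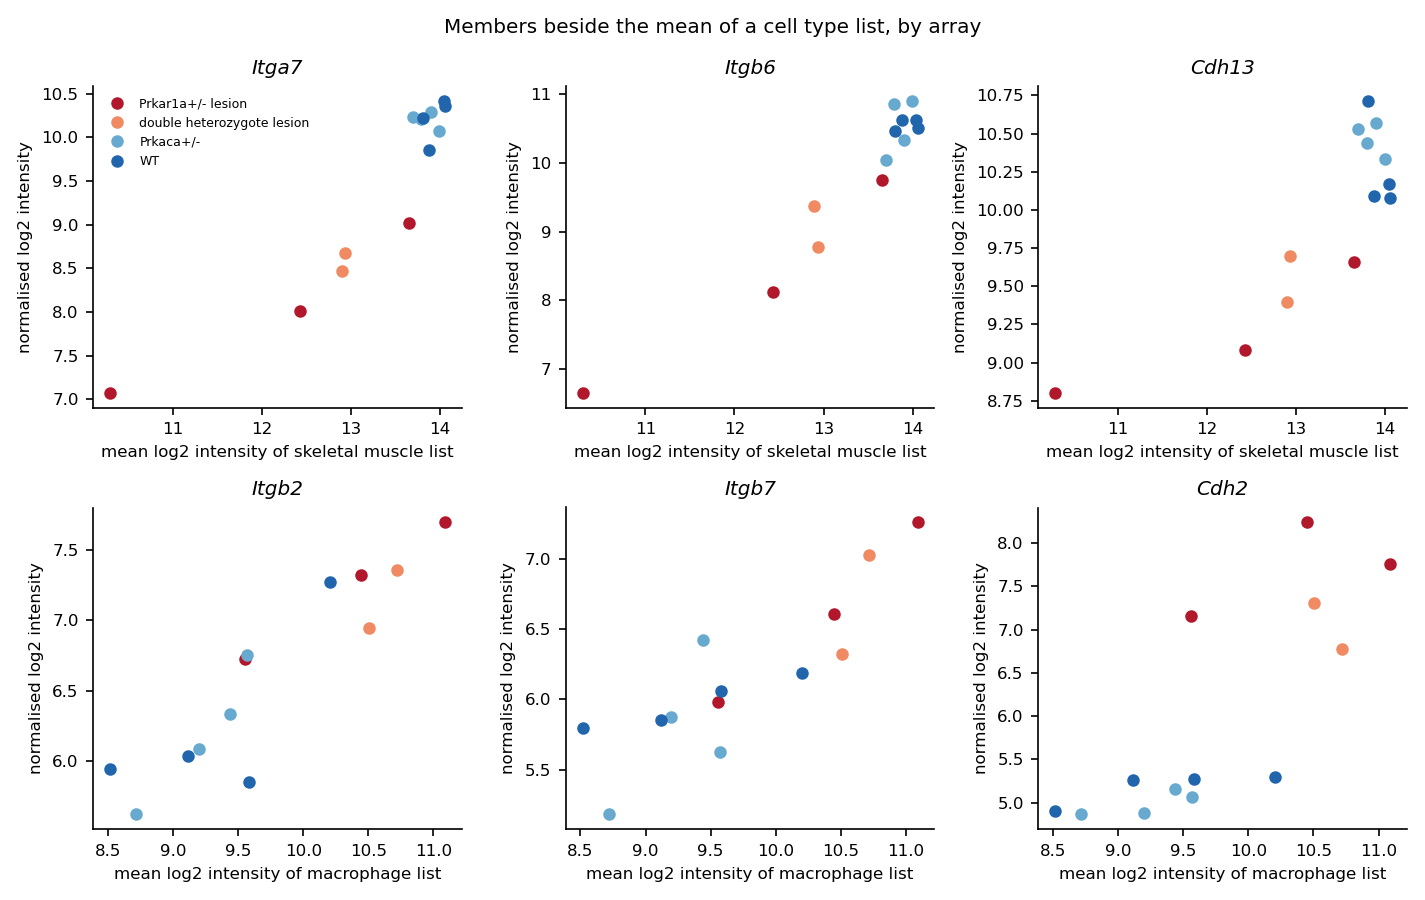
Normalised log2 intensity of 6 members (vertical) against the mean log2 intensity of the skeletal muscle or macrophage list (horizontal), 1 point per array, coloured by group. Itga7, Itgb6 and Cdh13 are low where the muscle mean is low. Itgb2 and Itgb7 rise with the macrophage mean. Cdh2 is higher in every lesion array than in any other array. Both means moved with the lesions, and the part of these cells was not tested.

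Genes of the same pathways were read from 3 lists. The lists were chosen with earlier results of these data known, so their shares only describe the listed genes. Of the integrin ligands, 24 of 30 listed genes were tested, of which 16 rose (66.7%, against 26.2% of all genes) and 3 fell (12.5%, against 25.8%). Their median log2 difference was 0.96. Ibsp and Col1a1 are on this list and also on the osteoblast list. The largest rises were Tnn (tenascin-W, 4.55 ± 0.21), Ibsp (bone sialoprotein, an RGD protein of mineralised matrix, 3.79 ± 0.20) and Col1a1 (the main chain of type I collagen, 2.84 ± 0.16). The 3 that fell were Vtn (vitronectin, -1.35 ± 0.25), Lama2 (the laminin alpha chain of muscle, -1.25 ± 0.18) and Lamb2 (-0.55 ± 0.15). Among the adaptor, signalling and associated membrane proteins of integrin adhesions, 23 of 31 were tested. Of these 11 rose (47.8%) and 6 fell (26.1%), and the median was 0.23. Fermt3, the kindlin of blood cells (1.97 ± 0.28), Actn1, an actin crosslinker (1.07 ± 0.12), and the kinase Src (1.03 ± 0.16) rose most. Itgb1bp2, the muscle protein melusin (-2.26 ± 0.30), the sarcomeric Actn2 (-2.01 ± 0.35) and Lims2 (-0.93 ± 0.12) fell most. Among the catenins, nectins and other cadherin partners, 10 of 16 were tested, 5 rose (50%) and 3 fell (30%), and the median was 0.33. The adhesion proteins Nectin3 (0.87 ± 0.14) and Nectin2 (0.78 ± 0.20) and Ctnnb1 (beta-catenin, 0.66 ± 0.10) rose. Ctnnal1 (-0.85 ± 0.21), Ctnna3 (alpha-catenin of heart and testis, -0.41 ± 0.14) and Vezt (-0.39 ± 0.13) fell. Ctnna3 was detected on 0 lesion and 2 non-lesion arrays, so it passed the filter through non-lesion arrays alone. Fga, Ptk2b and Nectin1, counted among the rises of the 3 lists, were detected on no non-lesion array. The calls of these genes support nothing by themselves. Errors are SE over 5 lesion and 8 non-lesion arrays, and the median of all tested genes was -0.0078.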

How the data were processed

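Per the file headers, the deposited table gives each probe a linear average intensity and a detection p-value on each array. Probes with a deposited p-value above 0.1 carry no intensity there. The second deposited table holds scores of unstated unit. They followed the intensities of their array on a straight line, so they are a linear rescaling within each array, and they served as an alternative. The scanner and its software were not given in the sources used here. Total RNA was amplified to biotinylated cRNA, per the labels' protocols.

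On each array, intensities of probes with a detection p-value from 0.01 to 0.1 were regressed on the p-value's normal quantile. That line gave the background and filled the missing intensities. Values were corrected with normexp, raised by an offset of 16, quantile normalised and put on the log2 scale. Probes with a detection p-value under 0.01 on at least 2 arrays were tested (16226 probes), and a gene was its brightest tested probe on average. Arrays carry no read depth, so their number limits the precision. Where no array of the dimmer side detected a probe, the fold is a bound. Its denominator is, per array, the probe's value or the lowest detected value, whichever was higher. Such a bound allows for the undetected side only and carries no sampling error.

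Groups were compared with limma 3.58.1 in R 4.3.3. The fit had 4 group means and 9 residual degrees of freedom. P-values were adjusted by Benjamini-Hochberg over all tested probes, and calls were made under 0.05. The fit was tested on simulated data. Same-numbered arrays of different groups deviated with correlations from -0.244 to 0.358, and differently numbered ones from -0.333 to 0.256. The ranges overlapped, and the numbers were not taken as pairs. The highest correlation was of a same-numbered pair, so a link by number was not excluded.

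Members followed a symbol rule. Values per array are given for members called without overlap or called in any other comparison, with ranges for the rest. Of the 3 pathway lists, the 3 largest called rises and falls are named. The members and lists were chosen with earlier results of these data known.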

Additional observations from a re-analysis of the deposited data

Results flagged for a closer look

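In groups of 4 arrays, 1 array was set apart from the other 3 by Dixon's criterion in 7 of 64 groups tested, where chance gives about 1 in 20. WT replicate 2 held 3 of these: Itgb2 at 7.27 (the others from 5.86 to 6.03), Cdh13 at 10.72 (10.08 to 10.17) and Cdh6 at 4.85 (5.15 to 5.20). Cdh2 was low in WT replicate 3, at 4.90 (5.26 to 5.30). In Prkaca+/- bone, Itga11 was high in replicate 4, at 10.47 (10.03 to 10.06), Cdh3 low in replicate 3, at 4.60 (4.84 to 4.86), and Itga9 low in replicate 1, at 5.04 (5.69 to 5.76). The lesion groups, with 3 and 2 arrays, were too small for this criterion.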

How the results depend on the processing

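The 17 calls of lesion against non-lesion became 11 with probes detected on all 13 arrays, which leaves fewer genes to test, 8 with the muscle mean as a covariate and 9 with the macrophage mean, an alternative chosen after seeing the data, of which 8 were among the 17. The 16 calls of Prkar1a+/- lesion against WT became 6 and 8 with these covariates, and the 11 of double heterozygote lesion against Prkaca+/- became 7 with the deposited scores and 5 with the macrophage mean. Leaving out 1 array gave 14 to 18, 10 to 17 and 6 to 14 calls. The replicate number as a block gave 17, 16 and 9. The last 3 comparisons had 0 calls under every alternative run. Of single members, Cdh3 reversed with the deposited scores (-0.00869, in score units), Itgb3 against WT did too (-0.00720), and Itgae stood at -0.74 (adjusted p = 0.0245) with the macrophage mean; the cause was not tested. Over the alternatives, called members kept direction and call in 389 results, lost the call in 58 and reversed in 2. Members detected on few non-lesion arrays have differences that rest on values near background: without background correction Cdh22 stood at 0.41 and Cdh3 at 0.13.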
